A study of Mus musculus with 2 samples.

Results

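YAP and TAZ (encoded by *Yap1* and *Wwtr1*) are the transcriptional co-activators at the end of the Hippo pathway, and the 10 genes described here are these co-activators and a set of genes known as their targets or regulators. A gene was included when a probe on the array carried an accession of *Yap1*, *Wwtr1*, *Ccn1* (older name *Cyr61*), *Ccn2* (*Ctgf*), *Ankrd1*, *Amotl2*, *Axl*, *Lats2*, *Ajuba* or *Thbs1*. These genes had 11 of the 55681 probes on the array and made up 10 of the 24022 genes that could be tested. Each of the 11 probes passed the scanner software's test of being well above background for Cy3 and Cy5 on both arrays, so no member was lost to the filter on dim probes.

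The array compared mESCs carrying *AIMP3* f/f; Cre ERT2 alleles after 4 days in 2 μM 4-hydroxytamoxifen (4-OHT, called tamoxifen in the labels), in 2 replicates, with the same cells given ethanol. The floxed alleles and the tamoxifen-inducible Cre were therefore present in both groups, and Cre activation by 4-OHT in the depleted group only, so loss of AIMP3 cannot be told apart from an effect of 4-OHT or of active Cre. Cells were kept in medium with LIF, and the mESCs came from blastocysts. Each AIMP3-depleted RNA, in Cy5, shared an Agilent mouse array with a Cy3-labelled pool of the control RNA, and array 1 is called array 1 and array 2 array 2. The same pool was on both arrays and is 1 control sample without a spread of its own. As the dyes were not swapped, depletion and a dye bias of single genes cannot be told apart. Nothing states that the 2 replicates were separate cultures, and the p-values measure only the spread between these 2 arrays. *Eef1e1*, the gene of AIMP3, had a log2 ratio of AIMP3-depleted over control of -0.90 on array 1 and -0.90 on array 2, in the direction of the labels. Whether its probe lies in the deleted part of the gene was not examined.

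When the Hippo kinases are inactive, YAP and TAZ enter the nucleus and bind TEAD transcription factors, which recruit them to DNA. Active LATS kinases phosphorylate both proteins, which are then held in the cytoplasm or degraded. Several targets, among them *Lats2* and *Amotl2*, encode inhibitors of YAP and TAZ and form negative feedback, while *Ccn1* and *Ccn2* are the targets most often used to read the activity of the pathway. In early mouse embryos this pathway separates trophectoderm from inner cell mass. Activity of YAP and TAZ is set largely by phosphorylation and location of the proteins, which an RNA array does not measure.

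The promoters are shown first, because TEAD recognizes a short sequence that can be searched for in them. The motif GGAATG and its reverse complement CATTCC were searched on both strands in RefSeq promoter windows of assembly GRCm38.p6, which run from 250 bases before to 50 bases after a transcription start. *Ccn2* and *Thbs1* were not in the table, and 8 of the 10 members had a window. Each of these 8 genes had at least 1 window with the motif, compared with 16.6% of the 27025 genes with a window and 14.8% of the 11873 tested genes with one. Per window, the motif was in 9 of 10 windows of members and in 14.7% of all 32851 windows. Several members were known as TEAD targets when the list was made, so this count is a description of the list. The AP-1 motif TGANTCA (the same letters on both strands) neither contains nor lies within GGAATG, and it was in 0 of the 8 genes and in 8.97% of all genes with a window. A match shows the letters only and not that a factor binds there.

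The 250 bases before the start are printed for 6 members, 5′ to 3′ on the strand of the gene, with GGAATG or CATTCC in capitals. *Ankrd1* (chr19:36119845-36120094, minus strand), *Ccn1* (chr3:145649986-145650235, minus strand) and *Axl* (chr7:25788734-25788983, minus strand) stand for targets that were raised. *Wwtr1* (chr3:57575877-57576126, minus strand) and *Yap1* (chr9:8004597-8004846, minus strand) are the co-activators themselves. *Ajuba* (chr14:54577662-54577911, minus strand) holds 2 motifs and was not raised.
Ankrd1: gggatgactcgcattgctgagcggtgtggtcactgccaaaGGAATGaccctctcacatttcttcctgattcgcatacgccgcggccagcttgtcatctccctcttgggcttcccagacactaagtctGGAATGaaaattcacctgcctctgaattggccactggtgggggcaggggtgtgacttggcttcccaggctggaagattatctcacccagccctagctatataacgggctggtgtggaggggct
Ccn1: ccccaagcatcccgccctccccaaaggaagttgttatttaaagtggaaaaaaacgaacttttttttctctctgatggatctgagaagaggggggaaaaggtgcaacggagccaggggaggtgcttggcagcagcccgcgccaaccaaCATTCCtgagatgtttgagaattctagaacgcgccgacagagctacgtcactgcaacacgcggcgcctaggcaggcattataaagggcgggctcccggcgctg
Axl: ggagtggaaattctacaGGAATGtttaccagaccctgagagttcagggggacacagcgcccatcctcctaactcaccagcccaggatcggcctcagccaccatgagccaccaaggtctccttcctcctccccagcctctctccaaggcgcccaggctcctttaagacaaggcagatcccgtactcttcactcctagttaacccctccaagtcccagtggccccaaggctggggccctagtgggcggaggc
Wwtr1: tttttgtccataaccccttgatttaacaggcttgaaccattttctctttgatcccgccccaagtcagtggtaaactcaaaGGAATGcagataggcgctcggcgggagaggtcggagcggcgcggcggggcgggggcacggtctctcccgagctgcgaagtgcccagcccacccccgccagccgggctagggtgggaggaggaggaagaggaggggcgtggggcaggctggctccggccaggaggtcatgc
Yap1: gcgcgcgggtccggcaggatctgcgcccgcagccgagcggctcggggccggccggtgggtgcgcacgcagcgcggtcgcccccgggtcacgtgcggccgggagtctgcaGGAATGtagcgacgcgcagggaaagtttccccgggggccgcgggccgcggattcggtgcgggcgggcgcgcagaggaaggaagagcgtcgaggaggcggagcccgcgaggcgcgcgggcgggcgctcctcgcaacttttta
Ajuba: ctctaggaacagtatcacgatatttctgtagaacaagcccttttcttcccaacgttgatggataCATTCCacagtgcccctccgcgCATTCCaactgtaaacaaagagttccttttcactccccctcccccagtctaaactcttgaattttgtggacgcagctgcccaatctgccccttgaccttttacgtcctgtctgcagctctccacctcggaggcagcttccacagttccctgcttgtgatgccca

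The motif begins 210 and 123 bases before the start of *Ankrd1*, 103 before that of *Ccn1*, 65 before that of *Amotl2*, 233 before that of *Axl* and 141 before that of *Yap1*. In *Ajuba* both copies lie on the opposite strand, 186 and 164 bases before the start. Windows with 2 or more copies, as in *Ankrd1* and *Ajuba*, made up 1.36% of all windows. *Wwtr1* has 2 listed starts whose windows share the same copy, and *Lats2* has 2 starts, of which 1 holds the motif 5 bases after the start and the other holds none. The presence of the motif did not separate the members by their response, since *Yap1* and *Ajuba* hold it as well.

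**Figure D1:**
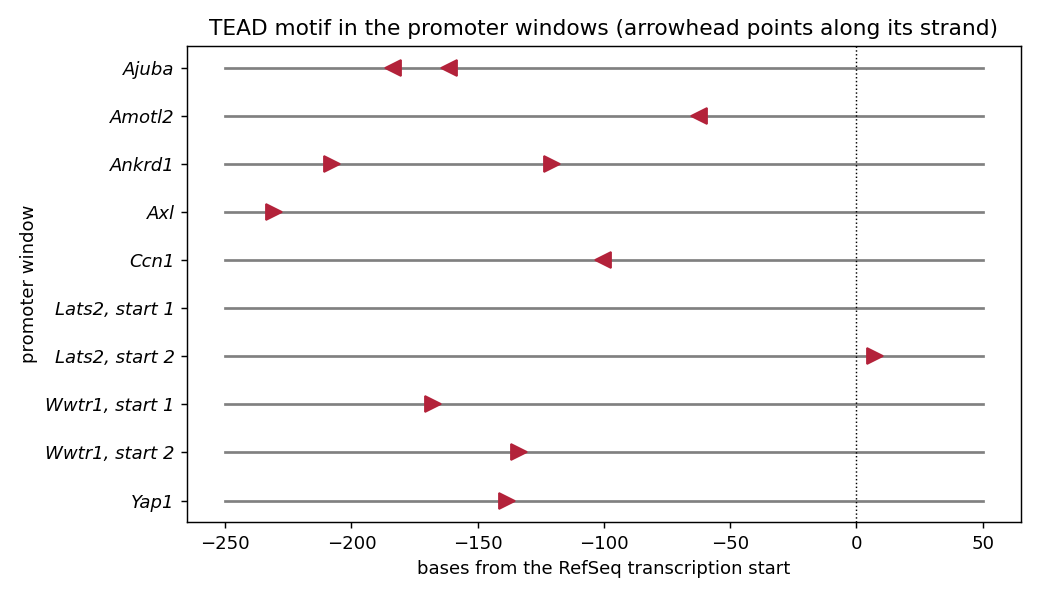
Position of the TEAD motif in the promoter windows of 8 of the 10 genes, with the distance in bases from the RefSeq transcription start on the x axis and 1 line for each window. Arrowheads point along the strand on which the motif lies, and only 1 of the 2 *Lats2* windows is without one.

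In AIMP3-depleted mESCs 8 of the 10 genes were raised and 0 were lowered. A gene was counted as changed when the mean log2 ratio of AIMP3-depleted over control passed 1.5-fold and the unadjusted p by limma was under 0.05, and every gene counted here also had an adjusted p under 0.05. Of all tested genes 5.52% were raised and 0.791% were lowered by the same rule, 6.32% in all. The members and the gene lists below were chosen with earlier results of these data known. Their counts therefore describe the lists and are not independent support. All 10 members had a positive log2 ratio on both arrays, compared with 52.7% of tested genes for the mean ratio. The median log2 ratio of the members was 0.91, with 0.90 on array 1 and 0.91 on array 2, against 0.02 over all tested genes. *Yap1* and *Ajuba* were the members that did not pass the fold threshold. In these bulk samples a larger share of cells that express a gene and more RNA per cell cannot be told apart.

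**Figure D2:**
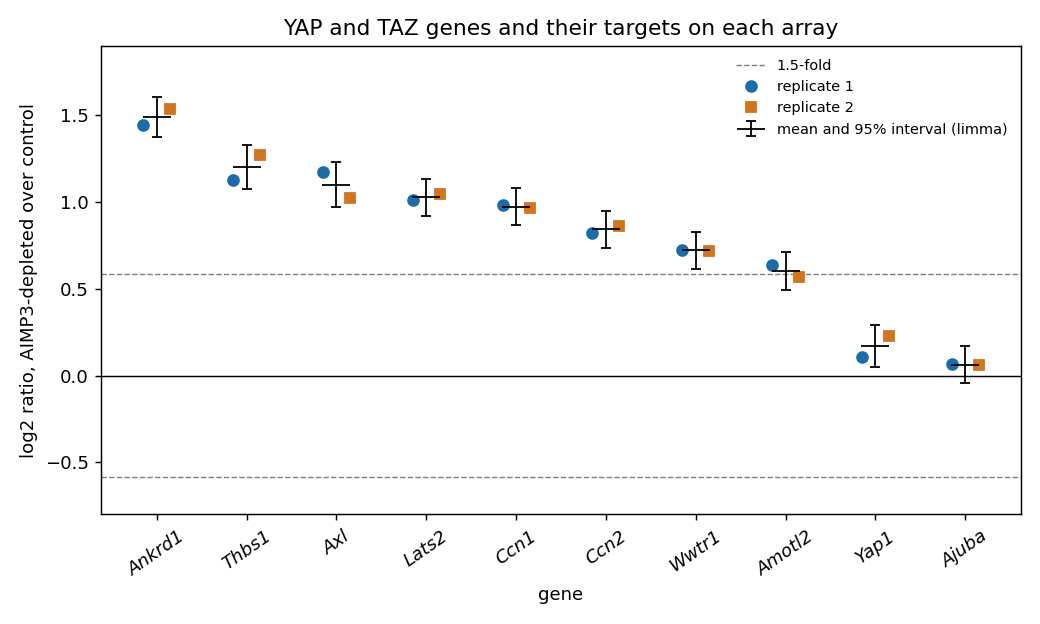
Log2 ratio of AIMP3-depleted over control for the 10 genes on the y axis, with points for the 2 replicate arrays, a black dash and bar for the mean and its 95% interval by limma, and dashed lines at 1.5-fold. On both arrays 7 genes lie above the upper line, *Amotl2* lies on either side of it, and *Yap1* and *Ajuba* lie between the lines.

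The secreted targets were examined first. *Ccn1* encodes a matrix-associated protein of the CCN family that binds integrins. Its probe read a normalized log2 intensity of 12.93 in the control and 13.91 in the AIMP3-depleted channel on array 1, and 12.95 and 13.92 on array 2. The channels did not overlap, and the log2 ratio was 0.97 ± 0.011 (SD of n = 2 arrays, limma adjusted p = 4.49e-05, by Benjamini-Hochberg across the 24022 genes).

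*Ccn2* encodes connective tissue growth factor, a relative of CCN1. Its levels were 14.62 in the control and 15.44 in the depleted channel on array 1, and 14.64 and 15.50 on array 2. The log2 ratio was 0.84 ± 0.032 (SD of n = 2 arrays, limma adjusted p = 5.88e-05). Between *Ccn1* and *Ccn2* the log2 ratios differed by 0.16 on array 1 and by 0.10 on array 2, and their 95% intervals overlapped.

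*Thbs1* encodes thrombospondin 1, a secreted glycoprotein that releases TGF-beta from its latent form, and it is also known as a gene activated by p53. Its probe read 12.29 in the control and 13.42 in the depleted channel on array 1, and 12.15 and 13.43 on array 2. With a log2 ratio of 1.20 ± 0.10 (SD of n = 2 arrays, limma adjusted p = 4.25e-05), its level was 2.30-fold that of the control. The spread between the arrays came mostly from the control channel, which differed by 0.14 between the arrays although it held the same pooled RNA.

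*Ankrd1*, which encodes an ankyrin repeat protein of nucleus and sarcomere, had the largest ratio of the members. The control channel read 9.30 and 9.33 on arrays 1 and 2, and the AIMP3-depleted channel read 10.74 and 10.86. The increase was 2.72-fold and 2.90-fold on the 2 arrays, with a mean log2 ratio of 1.49 ± 0.065 (SD of n = 2 arrays, limma adjusted p = 3.53e-05). It took rank 26 of the 24022 tested genes, counted from the highest ratio.

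*Axl* encodes a receptor tyrosine kinase that binds GAS6. It read 10.77 in the control and 11.95 in the depleted channel on array 1, and 10.90 and 11.92 on array 2. The log2 ratio was 1.10 ± 0.11 (SD of n = 2 arrays, limma adjusted p = 5.08e-05), the largest SD of the 10 genes, and both depleted values lay above both control values. The 95% interval of *Ankrd1* (1.37 to 1.60) lay above those of *Thbs1* (1.07 to 1.33) and *Axl* (0.97 to 1.23), whereas the intervals of neighbours in the order *Thbs1*, *Axl*, *Lats2*, *Ccn1*, *Ccn2*, *Wwtr1* and *Amotl2* overlapped.

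Both targets that encode inhibitors of the pathway's output rose. *Lats2*, which encodes one of the LATS kinases, was measured by 2 probes for different transcripts. The brighter probe read 9.45 in the control and 10.46 in the depleted channel on array 1 and 9.63 and 10.68 on array 2, which gave a ratio (log2) of 1.03 ± 0.024 (SD of n = 2 arrays, limma adjusted p = 4.09e-05). The other probe read 7.71 and 8.15 on array 1 and 7.70 and 8.23 on array 2, a log2 ratio of 0.49 ± 0.065 (SD of n = 2 arrays, limma adjusted p = 0.000597 over all tested probes), which was under 1.5-fold. Both probes were positive on both arrays, and the size of the *Lats2* increase therefore depended on the probe, with 0.76 for the mean of both.

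*Amotl2*, which encodes an angiomotin that binds YAP and holds it in the cytoplasm, read 11.73 in the control and 12.36 in the depleted channel on array 1 and 11.75 and 12.32 on array 2. Its log2 ratio of 0.60 ± 0.048 (SD of n = 2 arrays, limma adjusted p = 0.000171) was the member nearest to the threshold of 0.585. It was over 1.5-fold on array 1 (1.56-fold) and under it on array 2 (1.48-fold). When the scanner software's processed signals were used, its ratio was 0.57 and no longer past the fold.

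The co-activators differed from each other. *Wwtr1*, the gene of TAZ, read 10.06 in the control and 10.79 in the depleted channel on array 1 and 10.08 and 10.81 on array 2. Its log2 ratio was 0.72 ± 0.0039 (SD of n = 2 arrays, limma adjusted p = 8.41e-05). *Yap1* read 14.27 and 14.38 on array 1 and 14.23 and 14.45 on array 2, a log2 ratio of 0.17 ± 0.085 (SD of n = 2 arrays, limma adjusted p = 0.0291), which is 1.12-fold. At any fold, an adjusted p under 0.05 with a positive ratio was found for 30.6% of all tested genes. On each array the ratio of *Wwtr1* exceeded that of *Yap1*, by 0.62 on array 1 and 0.49 on array 2, and the 95% intervals (0.62 to 0.83 and 0.048 to 0.29) did not overlap. The difference itself was not tested.

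*Ajuba* encodes a LIM protein that restrains LATS kinases and so favours YAP. Its probe read 12.78 in the control and 12.85 in the depleted channel on array 1 and 12.73 and 12.79 on array 2. The log2 ratio of 0.064 ± 0.0069 (SD of n = 2 arrays, limma adjusted p = 0.258) had a 95% interval from -0.042 to 0.17. Over the alternatives with a test the adjusted p of *Ajuba* ran from 4.13e-05, by limma with median centring, which put the median of all genes at 0.18, to 0.382 with no filter, and its unadjusted p by the methods' t-test was 0.0487.

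**Figure D3:**
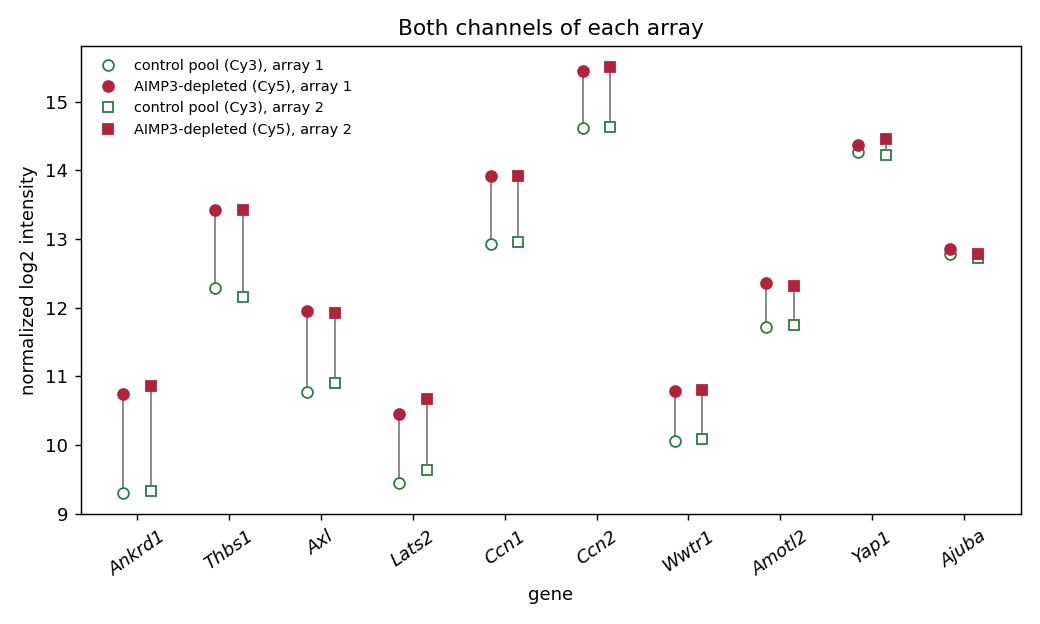
Normalized log2 intensity of both channels on each array for the probe that stands for each gene, with open symbols for the control pool (Cy3), filled symbols for AIMP3-depleted cells (Cy5), circles for array 1 and squares for array 2. Intensities of different probes are not comparable with each other, and the length of each grey line is the log2 ratio. Both filled symbols lie above both open symbols for every gene, by the least for *Ajuba* and *Yap1*.

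The control channel held the same RNA on both arrays. Its difference between arrays is what remained after normalization, which also used the depleted channel. Over the 10 genes this difference was at most 0.18 on the log2 scale, for *Lats2*, whose depleted channel shifted by 0.22 in the same direction. A ratio over 1.5-fold on each of the arrays was found for 7 of the 10 genes and for 4.69% of tested genes.

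The other genes of the Hippo pathway were described with a list of 38 genes that includes 5 members. Of these 34 could be tested, 8 were raised and 0 were lowered, and the median log2 ratio was 0.17. Among the 29 tested genes that are not members, 5 were raised (17.2%, compared with 5.52% of all tested genes) with a median of 0.15. The raised genes were *Amot* (log2 ratio 0.94) and *Amotl1* (0.64), which encode the other angiomotins, *Ptpn14* (0.69), which encodes a phosphatase that binds YAP, *Tead4* (0.64) and *Vgll3* (0.60), which encodes a TEAD-binding cofactor. All 3 angiomotins were thus raised, and the ratio of *Amotl2* differed from that of *Amotl1* by 0.037 on array 1 and by -0.12 on array 2.

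Of 13 tested genes of kinases and scaffolds, 1 was raised, which was *Lats2*, and this share of 7.69% is near the 5.52% of all tested genes. Its relative *Lats1* had a log2 ratio of -0.072 ± 0.027 (SD of n = 2 arrays, limma adjusted p = 0.210), which was 0.055 with median centring, or -0.13 relative to all genes, and the brighter *Lats2* probe exceeded it by at least 1.06 on both arrays. The other *Lats2* probe, at 0.44 on array 1 and 0.53 on array 2, also lay above *Lats1*, by less than the brighter probe did. The sister kinases *Stk3* and *Stk4* (0.030 and 0.19) and the scaffold gene *Sav1* (0.17) stayed under 1.5-fold. The other probe of *Stk4* had the opposite sign, at -0.077. The genes upstream or at cell junctions had 4 raised of 9 tested (44.4%), the 3 angiomotins and *Ptpn14*. *Nf2*, the gene of merlin, had a ratio of 0.051, and its other probe was at 0.19, both under 1.5-fold. Of the 3 inhibitors of LATS, *Ajuba*, *Limd1* (0.39) and *Wtip* (0.13), none (0 of 3) was over 1.5-fold, and groups this small are given as counts only.

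TEAD factors carry YAP and TAZ to DNA. *Tead4*, which specifies trophectoderm, was raised with a log2 ratio of 0.64 ± 0.055 (SD of n = 2 arrays, limma adjusted p = 0.000147), while *Tead1* had 0.45 ± 0.010 (SD of n = 2 arrays, limma adjusted p = 0.000403) and *Tead3* 0.52 ± 0.19 (SD of n = 2 arrays, limma adjusted p = 0.00131), both under 1.5-fold. The 3 probes of *Tead1* gave similar values, from 0.37 to 0.45. *Tead2* had a ratio of -0.12 (limma adjusted p = 0.0623), which was 0.17 with median centring, or -0.0051 relative to all genes. Its other probe was at -0.22 on both arrays (limma adjusted p = 0.00881 over all tested probes), under 1.5-fold as well. *Tead3* passed 1.5-fold with the processed signals (0.63), with median centring (0.64) and in the authors' deposited table (0.67), and *Tead1* did so with median centring (0.72). Array 1 decided the value of *Tead3*, which was 0.66 without replicate 2 and 0.39 without replicate 1. *Vgll3* was at 0.579, just under the threshold, without replicate 2, but at 1.08 with the processed signals and 1.12 in the authors' deposited table. For most probes that table holds the ratio of the processed signals plus 0.04, so these settings are not independent.

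A wider set of targets came from a signature of 22 genes found together in human tumours, of which 6 are members. Of its 21 tested genes 13 were raised and 0 were lowered, with a median log2 ratio of 0.64. Without the members, 7 of 15 tested genes were raised (46.7%, compared with 5.52% of all tested genes), and the median was 0.45. The 7 were *Ccdc80* (log2 ratio 1.15), *F3* (1.05), the gene of tissue factor, *Tgfb2* (0.80), *Ptpn14* (0.69), *Crim1* (0.68), *Rbms3* (0.64) and *Asap1* (0.63). *F3* and *Tgfb2* each had a pair of probes past 1.5-fold (0.92 and 0.92 for the other probe), whereas the other probes of *Ccdc80* (0.43) and *Rbms3* (0.29) were under it. *Asap1* was at 0.576, under the threshold of 0.585, without replicate 1. *Rbms3* was at 1.43 with the processed signals and at 1.47 in the authors' deposited table, which is that ratio plus 0.04. The lowest ratios of the signature were -0.12 for *Fjx1* and -0.15 for *Gadd45a*. The TEAD motif was in a promoter window of 2 of the 10 signature genes that are not members and have a window, and in 18.4% of the 760 raised genes with a window. It was in 14 of 31 Hippo pathway genes with a window (45.2%), a count that includes 5 of the members, and in 4 of 14 fibroblast markers (28.6%), 1 of 11 endoderm markers (9.09%) and 1 of 12 pluripotency markers (8.33%).

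**Figure D4:**
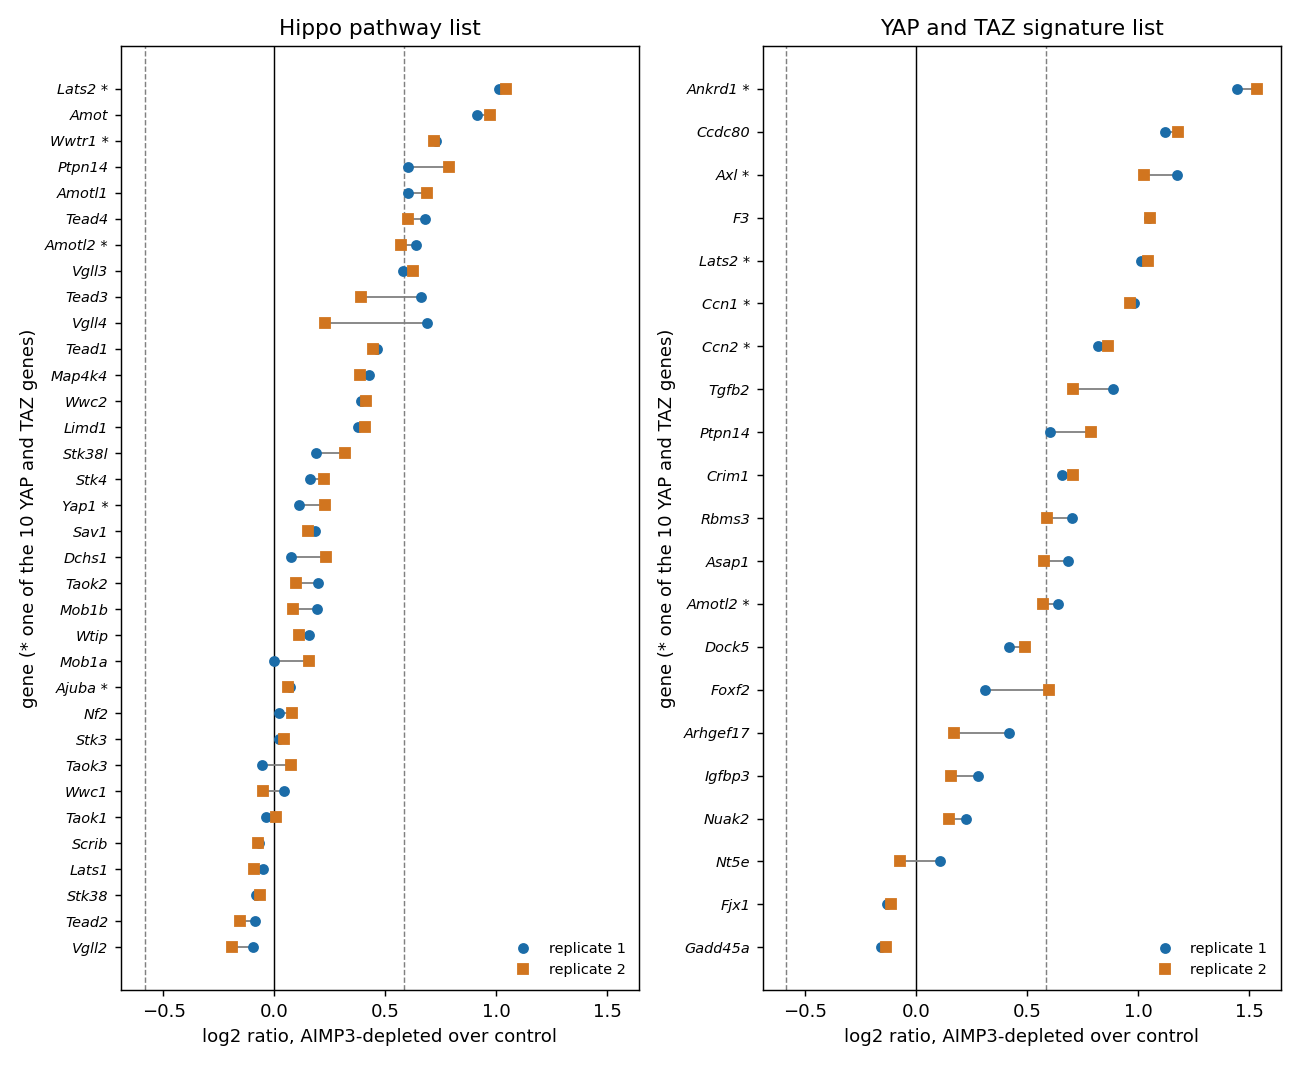
Log2 ratio of AIMP3-depleted over control on the x axis for the 34 tested genes of the Hippo pathway list (left) and the 21 tested genes of the YAP and TAZ signature (right), sorted by their mean, with circles and squares for the 2 replicate arrays and dashed lines at 1.5-fold. An asterisk marks those of the 10 genes described here that are in a list, which leaves out *Thbs1*. Most genes of the left panel lie between the lines, 13 genes of the right panel have a mean past the upper one, and none (0 genes) lies below the lower one.

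Genes of other cell types moved with the targets. Of 24 fibroblast markers 22 were tested, 15 were raised (68.2%, compared with 5.52% of all tested genes) and 0 were lowered, with a median log2 ratio of 0.79 and a range from 0.0055 for *Mmp2* and 0.065 for *Fstl1* to 1.40 for *S100a4* and 1.47 for *Tagln*. Their summed intensity was 71671 and 73214 in the control channel and 136558 and 146876 in the AIMP3-depleted channel of arrays 1 and 2, and *Lum* and *Fap* were not well above background. Of 18 markers of primitive and parietal endoderm 15 were tested, 13 were raised (86.7%) and 0 were lowered, with a median of 1.02 and a range from 0.23 for *Amn* and 0.34 for *Lamc1* to 1.38 for *Foxa2* and 1.44 for *Sox17*. Their summed intensity was 225977 and 231454 in the control and 452822 and 446139 in the depleted channel, and *Afp*, *Ttr* and *Hnf4a* were not well above background. The median of the 10 YAP and TAZ genes, 0.91, lay between the medians of these lists. The labels describe culture on feeder layers of fibroblasts, and the methods describe conditioned medium for drug treatment. The part of fibroblasts or endoderm-like cells in the rise of the targets was not tested.

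As for the labelled cell type, all 16 pluripotency markers exceeded background clearly in Cy3 and in Cy5. Of these 2 were lowered, *Fgf4* (-0.87) and *Tdgf1* (-0.59), compared with 0.791% of all tested genes, and 0 were raised. With median centring 0 were lowered and 2 were raised. *Tdgf1* was past 1.5-fold on array 2 (-0.64) but not on array 1 (-0.55). The median log2 ratio was -0.14, with 7 of 16 ratios positive, and the highest ratios were those of *Dppa5a* (0.50) and *Tbx3* (0.49). Among the core factors, *Sox2* was at -0.51 on array 1 and -0.54 on array 2. *Pou5f1* varied more, at -0.64 and -0.32, and was past 1.5-fold on array 1 alone. The probes of *Nanog* differed in sign, with a mean of -0.38 for the brighter one and 0.064 for the other.

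Across processing, the direction of every one of the 10 members held under the 10 alternatives tried, but several of these could not change it. No filter, the stricter filter and the methods' t-test kept the same probe and ratio, and leaving out a replicate returned the ratio of 1 array. Among the members the mean of probes changed only *Lats2*. The deposited table is the scanner's ratio plus 0.04 for most probes, and so repeats the processed signals. With median centring in place of loess, which put the median of all genes at 0.18 on the log2 scale, each ratio was larger, and *Yap1* was at 0.49 (0.31 relative to all genes) and *Ajuba* at 0.30 (0.12 relative to all genes), both still under 1.5-fold. The share of rises among all changed genes was 87.5% after loess, 71.5% with the processed signals, 77.5% in the authors' deposited table and 97.7% with median centring, while all changed members were rises each time.

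**Figure D5:**
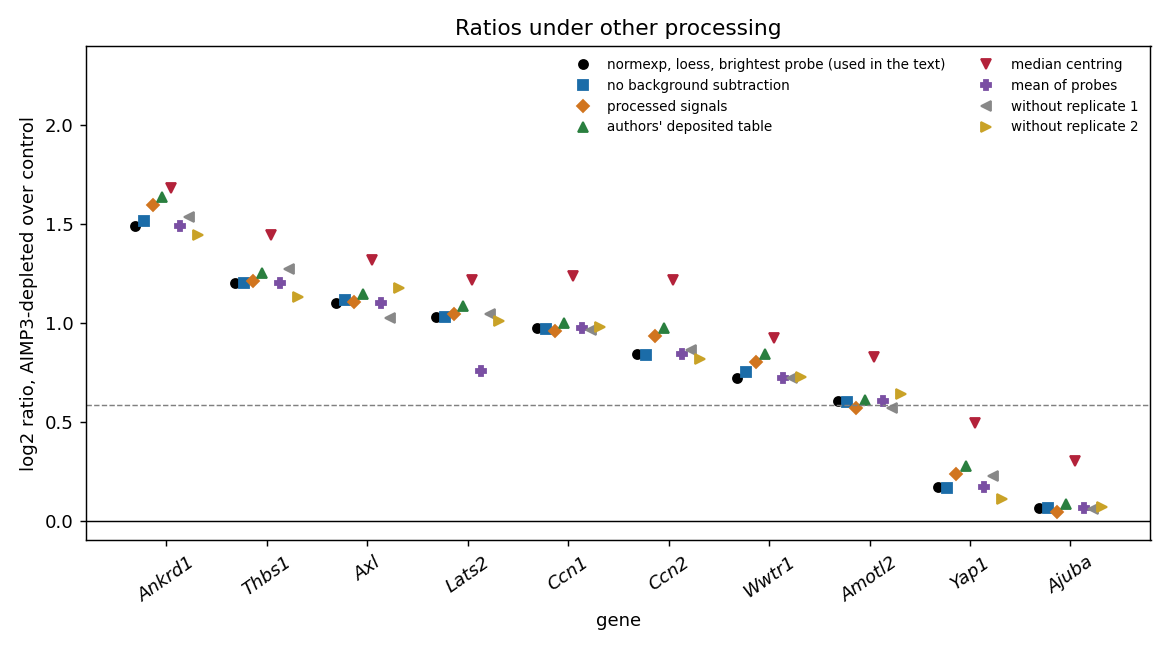
Log2 ratio of AIMP3-depleted over control for the 10 genes under 8 ways of processing, which include leaving out each replicate, with a dashed line at 1.5-fold. The values of *Yap1* and *Ajuba* stay below the line and those of the 7 genes from *Ankrd1* to *Wwtr1* above it, and *Amotl2* falls below it with the processed signals and without replicate 1.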

How the data were processed

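Per the labels, total RNA was measured on 2-colour Agilent arrays, with AIMP3-depleted RNA in Cy5 and pooled control RNA in Cy3. The authors deposited Feature Extraction output (version 11.5.1.1 in the header, another version than the methods name) with the intensity of each spot and its local background, not normalized. The deposited files also hold processed signals, which the software background-subtracted and dye-normalized, and their log10 ratio. The authors' deposited table after GeneSpring holds log2 ratios, equal to the scanner's ratio plus 0.04 on each array for most probes. The number of per-sample columns of the table not used was 0.

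Median spot signals were background-corrected with limma's normexp (offset 50), which shrinks the ratios of dim probes, and each array was normalized by loess without control spots. Flagged spots (215 and 227) were dropped and spots of a probe averaged. The filter kept 33012 of 55681 probes, those that on each array passed the test of being well above background for Cy3 or Cy5, and the brightest probe stood for a gene. Probes were named through accessions in a table of RefSeq genes. Each array had 59305 spots that were not controls, a median signal over background from 2.68 to 3.31, and 0 saturated spots. Precision is limited by having 2 arrays.

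The mean log2 ratio was tested against 0 with limma's lmFit and eBayes (1 residual and 5.25 prior degrees of freedom), adjusted by Benjamini-Hochberg over 24022 genes. Channel levels are given after loess and Aquantile. The steps were tested on simulated data. The members and gene lists were chosen with earlier results of these data known. The rule for naming genes took all members, Hippo and signature genes past the threshold, *Tead1* to *Tead4*, *Lats1*, and the highest and lowest cell type markers, and other Hippo, signature and pluripotency genes were named after their values were seen. Genes were not ranked by likeness of pattern, since 2 arrays give no pattern to compare. Alternatives were no background subtraction, processed signals, median centring, no filter, a stricter filter and the mean of probes. Further ones were the deposited table, the methods' t-test, and each replicate left out. The methods name a Student's t-test between groups without saying how it was applied to the arrays. Here it tested the 2 log2 ratios of a gene against 0 with 1 degree of freedom. R 4.3.3, limma 3.58.1, Python 3.11.15, pandas 2.3.3 and matplotlib 3.10.9 were used.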

Additional observations from a re-analysis of the deposited data

How the results depend on the processing

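The number of changed members was between 7 and 8 under all 10 alternatives, with 7 for the processed signals and without replicate 1, where *Amotl2* fell under 1.5-fold at 0.57 each time. Over all genes, 1517 changed, against 2720 with the processed signals, 2888 with median centring, 2747 in the authors' deposited table and 992 with the methods' t-test, which called 0 genes after Benjamini-Hochberg adjustment. All 8 raised members were among those with an unadjusted p under 0.05 by the methods' t-test. Without replicate 1 the count was 1651 and without replicate 2 it was 1523, by the fold alone because 1 array leaves no test. Of the Hippo pathway genes 13 changed with median centring in place of 8, and of the pluripotency markers 1 changed in place of 2 with the processed signals, the deposited table and the methods' t-test, while median centring gave 2 raised and 0 lowered. *Tead2* (0.17) and *Lats1* (0.055) had positive values with median centring, which put the median of all genes at 0.18, and relative to all genes they were at -0.0051 and -0.13. The methods' t-test no longer called *Asap1*, *Ptpn14*, *Rbms3* and *Tgfb2*, the mean of probes no longer called *Rbms3* (0.46), and *Vgll3* was at 0.56 with no background subtraction. *Asap1* was at 0.576 without replicate 1, which left 12 changed signature genes in place of 13. Apart from the shift of all genes with median centring, the cause was not tested. No paired analysis was possible because the control was 1 pooled sample.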
